A study of Mus musculus with 43 samples.

Results

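The genes described here are 36 type I interferon stimulated genes of the mouse, a list chosen by name: Ifit1, Ifit2, Ifit3, Mx1, Isg15, Usp18, Oas1a, Oas2, Oas3, Oasl1, Oasl2, Rsad2, Irf7, Irf9, Ifi44, Ifih1, Ddx58, Dhx58, Zbp1, Ifi203, Ifi204, Ifi205, Ifi209, Ifitm3, Bst2, Cmpk2, Rtp4, Xaf1, Parp14, Trim30a, Stat2, Slfn1, Slfn5, Eif2ak2, Herc6 and Ifi27l2a. Each matched 1 row of the 37991 genes in the count table. RNA came from phagocytes of the lungs of neonatal mice (strain C57BL/6), and the labels name no genetic change or other agent. Pups of mixed litters had spent 1.5 days in air (normoxia) or in hyperoxia at an inspired oxygen fraction of 0.9. Perfused whole lungs were digested and sorted by flow cytometry into 4 populations. Alveolar macrophages (AM) were gated as high for Siglec-F and CD11c, and dendritic cells (DC) as high for CD11c and MHC class II. The 2 other populations were monocytes or macrophages, one with high Ly6C and low CD11c (Ly6Chi) and one with low Ly6C and high CD11c (Ly6Clo). The 43 libraries hold 6 normoxic libraries each of DC, AM and Ly6Chi, 5 of Ly6Clo, and 5 hyperoxic libraries of each population. They come from litters 93, 100 and 108, and each litter holds both oxygen conditions in every population. The labels do not say which pup a library came from or whether pups were pooled, so p-values measure the spread between libraries, part of which may be technical.

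Type I interferons (interferon beta and the interferon alpha family) bind the receptor made of IFNAR1 and IFNAR2. The kinases JAK1 and TYK2 then phosphorylate STAT2, which joins IRF9 in a complex that binds the interferon stimulated response element in the promoters of the induced genes. The products sense foreign nucleic acid, block viral RNA and protein synthesis, or feed back on the pathway. In tissue macrophages and monocytes a low level of many of these genes is kept up without infection, which is often called tonic interferon signalling.

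Promoters of many of the induced genes hold a repeated GAAA, and stretches that show it are printed first because the values below follow genes of this kind. RefSeq promoters of build GRCm38.p6, from 250 bases before to 50 bases after the start site, were found for 27 of the 36 genes. The submitters' processing notes name another build, NCBIM37, so these positions belong to the promoter table alone. The core of the response element, searched as 2 copies of GAAA with any 2 bases between them, on either strand (2 copies of TTTC when read from the other), was present in the window of 16 of the 27 genes, or 59.3%, against 1079 of 27025 genes with a promoter, or 3.99%. It was also present in 16 of 38 genes (42.1%) of a second list of interferon stimulated genes and in 8 of 10 interferon gamma inducible genes (80.0%), both lists described further on. These 8 include Gbp5, which was not matched to a row of the count table by symbol and is left out of the later values. Capitals mark the core and its overlapping copies in these upstream stretches, written 5′ to 3′ along the gene's strand, with positions counted from the start site.
Ifit1 (chr19:34640770-34640828, plus strand, bases −119 to −61): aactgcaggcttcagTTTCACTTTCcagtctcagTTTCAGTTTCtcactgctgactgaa
Isg15 (chr4:156200860-156200911, minus strand, bases −93 to −42): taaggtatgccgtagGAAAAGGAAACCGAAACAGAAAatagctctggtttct
Oas1a (chr5:120907526-120907560, minus strand, bases −35 to −1): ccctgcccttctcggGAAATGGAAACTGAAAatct
Bst2 (chr8:71537572-71537617, minus strand, bases −145 to −100): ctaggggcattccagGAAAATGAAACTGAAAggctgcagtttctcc
Ifi203 (chr1:173942503-173942542, minus strand, bases −50 to −11): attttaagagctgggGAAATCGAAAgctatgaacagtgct
Ifi205 (chr1:174031865-174031904, minus strand, bases −149 to −110): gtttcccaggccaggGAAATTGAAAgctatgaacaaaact
Isg15, which encodes a ubiquitin-like modifier, had 3 overlapping cores, and Oas1a (a 2′-5′ oligoadenylate synthetase) and Bst2 (tetherin, which holds virions at the membrane) had 2 overlapping ones. Ifit1, whose product binds viral RNA caps, had 2 separate cores that read TTTC on its own strand. Ifi203 and Ifi205 are neighbouring members of the PYHIN family of DNA-binding proteins on chromosome 1, and their 40-base stretches were the same at 28 bases. In 12 of the 16 genes a core lay before the start site, and in Ddx58, Eif2ak2, Ifih1 and Ifitm3 it lay only after it. A match describes letters and is no evidence of binding. Mx1, Usp18, Oas2, Dhx58, Zbp1, Ifi204, Rtp4, Parp14 and Ifi27l2a had no entry in the promoter table.

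Library totals ranged from 551960 to 2403861 counts, and 5 libraries were under 1000000 (4 of AM and 1 of Ly6Clo). Levels are given as CPM, counts scaled to a library of 1000000 after correction by trimmed means. In normoxia the summed CPM of 12 alveolar macrophage markers was 4817 to 5877 in AM and 459 to 1022 in DC and Ly6Chi, but 2714 to 4268 in Ly6Clo. Summed over 12 dendritic cell markers, DC held 4609 to 6906 CPM and no other normoxic library more than 1203, while 9 classical monocyte markers summed to 4283.5 to 6209.9 CPM in Ly6Chi and to at most 1963 elsewhere. The 9 non-classical monocyte markers did not single out Ly6Clo. They summed to 2404 to 3163 CPM in Ly6Chi, 1596 to 3050 in Ly6Clo, 1102 to 1777 in DC and 301 to 439 in AM. DC also held B cell markers (5 genes, 588 to 1311 CPM), and Ly6Chi held neutrophil markers (11 genes, 1380.4 to 2883 CPM). Interstitial macrophage markers (8 genes) summed to 2486 to 4008 CPM in Ly6Clo and 2292 to 2934 in DC. They were at most 1469.5 CPM in AM and 1341.5 in Ly6Chi. Epithelial markers (8 genes) summed to 339 to 2760 CPM in AM, 290 to 2095 in DC, 71.1 to 2004 in Ly6Chi and 405 to 1458 in Ly6Clo. Endothelial markers (6 genes) reached 780 CPM in AM. The part of such cells in the levels below was not tested. Counts of the most abundant transcripts are limited: no gene exceeded 1.73 counts per exonic base in any library, 37 genes exceeded 1, and among the 36 only Ifitm3 did. The hyperoxic libraries of litter 100, 1 per population, stood apart from the rest of their groups. For the filtered tests of hyperoxia, median differences and counts of called genes are also given without that litter. Other results under hyperoxia include it unless stated. In bulk RNA of sorted cells, fewer cells of a type and less RNA per cell cannot be told apart. Where reads fall on near-identical copies (the Ifit, Oas, Ifi200, Trim30 and Slfn clusters), the counting rule is not given in the sources used here, so the split between members of these clusters is uncertain.

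In air the 36 genes were highest in Ly6Chi cells, next in DC, lower in Ly6Clo and lowest in AM. The mean log2 CPM over the 36 genes was 7.36 ± 0.18 in Ly6Chi (SD, n = 6), 6.49 ± 0.17 in DC (n = 6), 5.09 ± 0.38 in Ly6Clo (n = 5) and 3.19 ± 0.35 in AM (n = 6). By library it ran from 7.14 to 7.67 in Ly6Chi, 6.20 to 6.70 in DC, 4.57 to 5.55 in Ly6Clo and 2.55 to 3.51 in AM, so that the 4 ranges did not overlap. Together the 36 genes made up 7979 ± 979 CPM (SD) in Ly6Chi, 4572 ± 567 in DC, 2238.5 ± 382 in Ly6Clo and 859 ± 141 in AM. The order Ly6Chi, DC, Ly6Clo, AM held for 33 of the 36 genes by mean log2 CPM. The exceptions were Ifi205 and Ifi44, which were highest in DC, and Ddx58, which was higher in Ly6Clo than in DC.

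**Figure D1:**
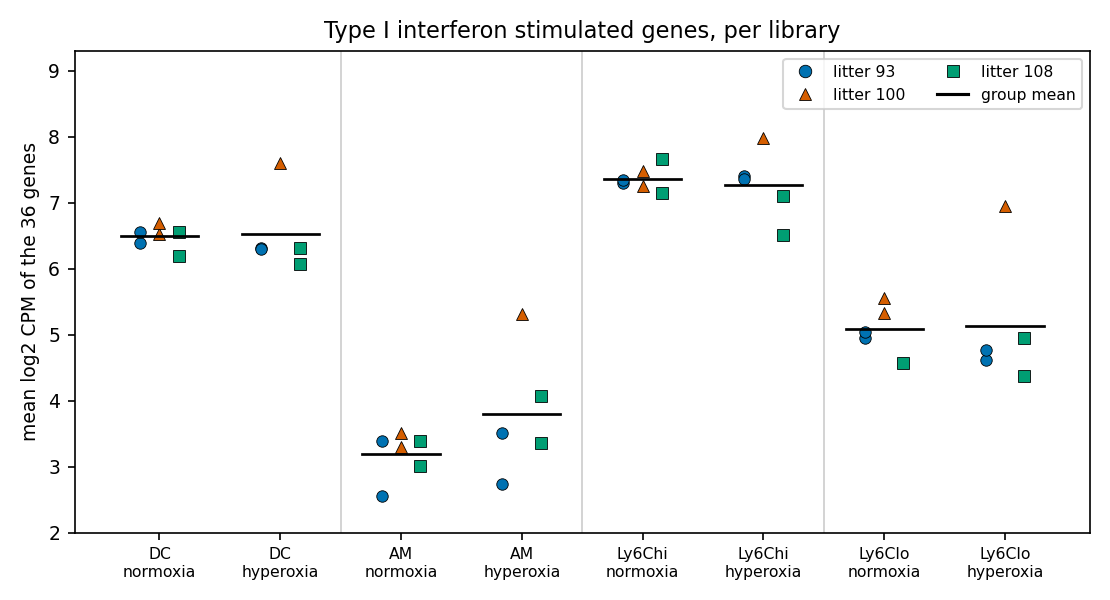
Mean log2 CPM of the 36 genes (y axis) in each of the 43 libraries, by sorted population and oxygen condition (x axis), where the shape and colour of a point give its litter and bars are group means. The normoxic libraries of the 4 populations form separate bands, and the 1 hyperoxic library of litter 100 is the highest of each population (7.61 in DC, 5.32 in AM, 7.98 in Ly6Chi and 6.95 in Ly6Clo).

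All 36 genes passed the filter on low counts in the fit of the normoxic libraries (11979 genes). DC were higher than AM in 36 of 36 (edgeR quasi-likelihood test with Benjamini-Hochberg adjustment, call at an adjusted p under 0.05), where 27.5% of all genes tested were called higher and 49.9% in either direction. AM were lower than Ly6Chi in 35 of 36, against 28.3% of all genes lower and 52.2% in either direction. Ly6Chi were higher than Ly6Clo in 35 of 36, against 15.7% higher and 30.7% in either direction. Between AM and Ly6Chi and between Ly6Chi and Ly6Clo the gene not called was Ifi44.

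The other pairs were closer. AM were lower than Ly6Clo in 30 of 36 (14.2% of all genes lower, 21.5% in either direction), and Ifi44, Ifih1, Ifi205, Bst2, Cmpk2 and Stat2 were not called. DC were higher than Ly6Clo in 26 of 36 (11.7% higher, 24.4% in either direction), and Oas1a, Oas2, Oas3, Ddx58, Zbp1, Ifi204, Ifitm3, Rtp4, Parp14 and Ifi27l2a were not called. DC were lower than Ly6Chi in 25 genes and higher in 2, Ifi205 and Ifi44 (14.4% of all genes lower, 14.2% higher, 28.7% in either direction). Mx1, Isg15, Usp18, Ifi203, Ifitm3, Bst2, Stat2, Eif2ak2 and Herc6 were not called between DC and Ly6Chi. The median log2 fold change of the 36 genes was 2.90 for DC against AM, −0.95 for DC against Ly6Chi and 1.06 for DC against Ly6Clo. It was −4.30 for AM against Ly6Chi, −1.69 for AM against Ly6Clo and 2.09 for Ly6Chi against Ly6Clo, while the median of all genes lay between −0.05 and 0.05 in the 6 pairs. The pairs share libraries and are not independent of each other.

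By the ranges of single libraries, AM and Ly6Chi did not overlap for 35 of 36 genes, with AM below (13.9% of all genes tested), DC lay wholly above AM for 34 (13.3%), and Ly6Chi wholly above Ly6Clo for 33 (7.56%). AM lay wholly below Ly6Clo for 20 genes (6.22%) and DC wholly above Ly6Clo for 17 (6.98%). DC lay wholly below Ly6Chi for 18 genes (7.05%) and wholly above for 1, Ifi205 (7.64%).

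**Figure D2:**
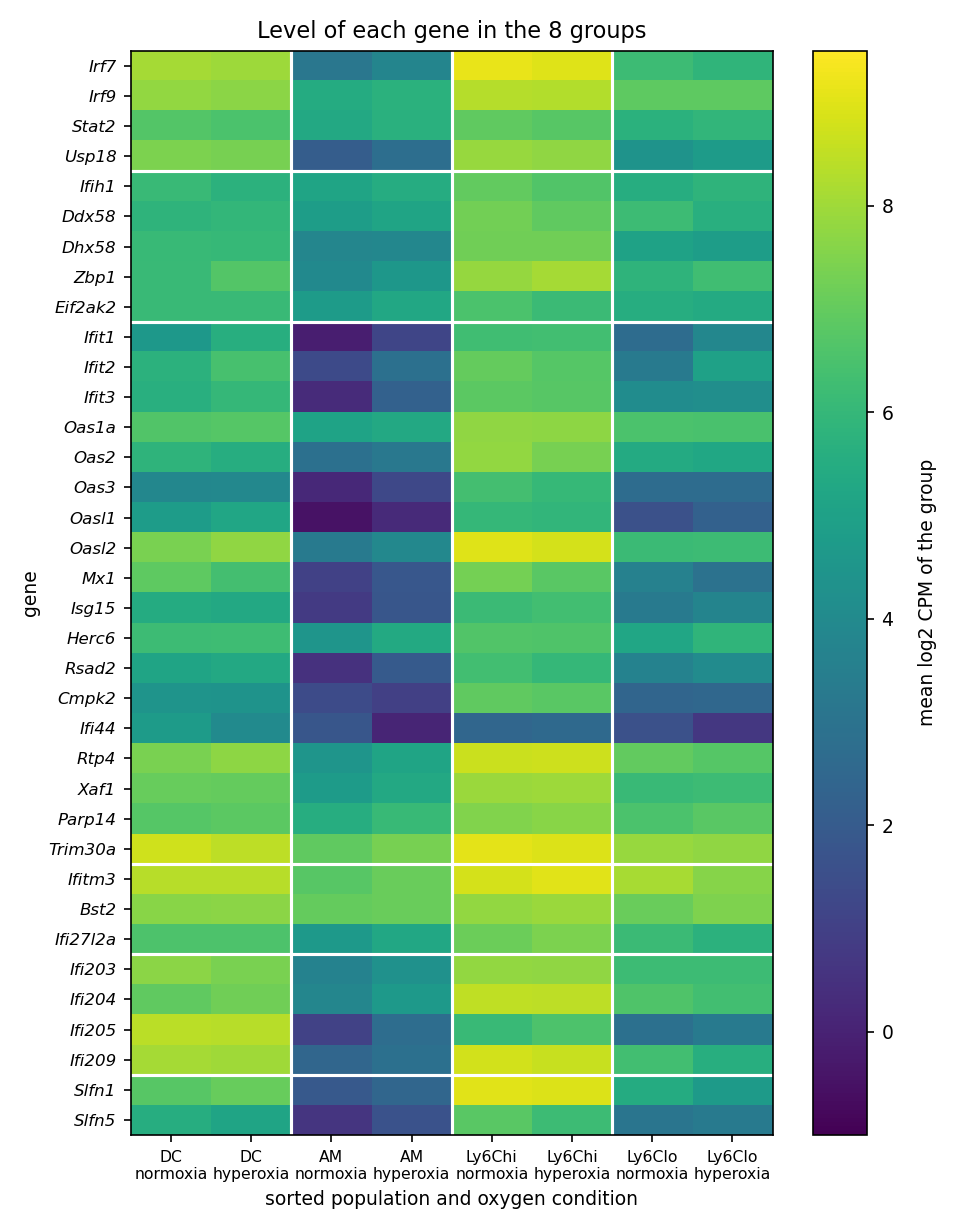
Mean log2 CPM (colour scale) of each of the 36 genes (rows, grouped by role with white lines) in the 8 groups of population and oxygen condition (columns). The Ly6Chi columns are the brightest and the AM columns the darkest for most rows, Bst2 has the smallest difference between normoxic populations (0.78 on the log2 scale) and Ifi205 the largest (7.32).

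Among the regulators, Irf7 carried one of the largest differences. It encodes the transcription factor that amplifies interferon alpha production. Its lowest, median and highest normoxic levels were 401, 579 and 782 CPM in Ly6Chi, 166, 297 and 342 CPM in DC and 5.39, 9.14 and 11.8 CPM in AM, and the 5 Ly6Clo libraries held 53.0, 89.8, 48.0, 141 and 61.9 CPM. All Ly6Chi libraries exceeded all DC libraries, which in turn exceeded all Ly6Clo libraries, and AM lay below them all. Irf7 was 68.9-fold lower in AM than in Ly6Chi (log2 −6.11 ± 0.30 (SE), adjusted p = 8.46e-14) and 2.06-fold lower in DC than in Ly6Chi (−1.04 ± 0.21 (SE), adjusted p = 0.000505).

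Usp18, the protease that removes ISG15 and blocks the receptor, was not called between DC and Ly6Chi. It was at 198 to 322 CPM in Ly6Chi and 123 to 239.8 CPM in DC, which overlapped (−0.41 ± 0.29 (SE), adjusted p = 0.325), against 13.9 to 31.4 CPM in Ly6Clo and 0 to 19.7 CPM in AM. Irf9 and Stat2, which encode subunits of the response factor, were lower in AM than in Ly6Chi by smaller factors. Irf9 ranged from 30.5 to 53.5 CPM in AM to 236 to 415 CPM in Ly6Chi (7.29-fold), and Stat2 from 26.0 to 48.0 CPM to 95.2 to 159.5 CPM (3.02-fold). Stat2 was not called between AM and Ly6Clo (log2 −0.33 ± 0.18 (SE), adjusted p = 0.188).

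The RNA sensors kept a moderate level in every population, AM included. Ifih1 (MDA5, a sensor of long double-stranded RNA) was at 27.7 to 47.9 CPM in AM, 25.5 to 62.3 CPM in Ly6Clo, 47.2 to 87.8 CPM in DC and 94.3 to 157 CPM in Ly6Chi. Ddx58 (RIG-I, a sensor of RNA with a terminal triphosphate) was at 21.6 to 37.7, 54.3 to 99.4, 26.8 to 74.4 and 100.5 to 194 CPM in the same order. AM were 3.63-fold below Ly6Chi for Ifih1 and 5.26-fold below for Ddx58 (adjusted p = 3.49e-08 and 2.53e-09). Both overlapped between DC and AM libraries, the only genes of the 36 to do so, although both were called in that pair (log2 1.03 ± 0.21 (SE), adjusted p = 0.000207 for Ifih1).

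The gap between AM and Ly6Chi was wider for Dhx58 and Zbp1 than for Ifih1 and Ddx58, but not for Eif2ak2. Dhx58 (LGP2, which modulates the RNA sensors) was 10.6-fold and Zbp1 (a sensor of Z-form nucleic acid that can start necroptosis) 13.8-fold lower in AM than in Ly6Chi. Zbp1 was at 184 to 276 CPM in Ly6Chi, 49.8 to 103 CPM in DC, 34.0 to 104 CPM in Ly6Clo and 10.2 to 22.6 CPM in AM. Eif2ak2 (PKR, which halts translation) differed by 3.33-fold between AM and Ly6Chi and was not called between DC and Ly6Chi (log2 −0.38 ± 0.17 (SE), adjusted p = 0.0968).

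Many of the effectors had few counts in AM. In the 6 normoxic AM libraries Oasl1, an oligoadenylate synthetase-like protein, had 1 count in all, Ifit1 had 4 counts, and Ifit3 and Oas3 had 6 counts each. Rsad2 (viperin, which makes a chain-terminating nucleotide) had 8 counts there, and its levels were 43.2, 92.6 and 120.2 CPM in Ly6Chi (lowest, median, highest), 23.7, 36.1 and 46.3 CPM in DC and 0, 0.849 and 3.38 CPM in AM. The 5 Ly6Clo libraries held 9.25, 13.3, 21.1, 16.8 and 5.23 CPM of Rsad2. No AM library reached the lowest Ly6Clo library, and the DC and Ly6Chi ranges overlapped only at their edges. For Rsad2 DC were 31.5-fold above AM (log2 4.98 ± 0.49 (SE), adjusted p = 5.62e-09) and 2.39-fold below Ly6Chi (−1.25 ± 0.30 (SE), adjusted p = 0.00217).

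The IFIT genes, whose products bind viral RNA and the translation factor eIF3, followed the common order. Ifit2 was at 69.0, 129 and 219 CPM in Ly6Chi, 25.5, 57.9 and 85.9 CPM in DC and 0, 2.47 and 7.36 CPM in AM (lowest, median, highest), and the Ly6Clo libraries held 9.25, 22.7, 10.9, 20.5 and 0.872 CPM. Ifit3 was at 76.2 to 139 CPM in Ly6Chi, 37.9 to 66.5 CPM in DC, 7.85 to 22.7 CPM in Ly6Clo and 0 to 2.55 CPM in AM, with no overlap between any of the 4. In Ly6Chi compared with Ly6Clo, Ifit1, Ifit2 and Ifit3 were 9.57-fold, 10.6-fold and 7.0-fold higher (adjusted p = 1.53e-06, 9.34e-06 and 4.48e-09).

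Mx1 and Isg15 set DC and Ly6Chi apart from the rest but not from each other. Mx1 encodes a dynamin-like GTPase against influenza virus, known to be defective as a protein in C57BL/6 mice. It was at 109.7, 159 and 194 CPM in Ly6Chi, 66.3, 138 and 162 CPM in DC and 0, 1.63 and 4.25 CPM in AM (lowest, median, highest), against 16.0, 21.1, 19.4, 15.3 and 1.74 CPM in the Ly6Clo libraries. DC and Ly6Chi overlapped for Mx1 (log2 −0.38 ± 0.21 (SE), adjusted p = 0.193), and DC exceeded Ly6Clo 8.97-fold (3.17 ± 0.28 (SE), adjusted p = 3.13e-09). Isg15 was at 50.7 to 87.2 CPM in Ly6Chi, 33.6 to 62.0 CPM in DC, 4.36 to 13.5 CPM in Ly6Clo and 0 to 4.72 CPM in AM. Its difference between DC and Ly6Chi just missed the threshold (−0.69 ± 0.26 (SE), adjusted p = 0.0503).

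Oligoadenylate synthetases make the second messenger of RNase L. Oas2 was at 144 to 294 CPM in Ly6Chi, and its DC (36.9 to 75.3 CPM) and Ly6Clo (26.2 to 69.3 CPM) libraries overlapped, with AM at 3.61 to 16.9 CPM. Oas1a, Oas2 and Oas3 were all above DC in Ly6Chi (2.17-fold, 3.90-fold and 5.60-fold) and none was called between DC and Ly6Clo. Oasl2, a synthetase-like protein, was at 299 to 755 CPM in Ly6Chi and 2.16 to 24.3 CPM in AM (42.7-fold, log2 −5.42 ± 0.38 (SE), adjusted p = 1.59e-10).

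Cmpk2, a nucleotide kinase whose gene lies beside Rsad2, had the largest difference between DC and Ly6Chi among the genes lower in DC. Ly6Chi libraries held 79.5, 128 and 149 CPM (lowest, median, highest), DC 15.9, 21.6 and 24.2 CPM and AM 0, 2.54 and 9.44 CPM, and the Ly6Clo libraries 3.70, 1.11, 10.9, 21.2 and 1.74 CPM. All Ly6Chi libraries lay above every other library, a difference of 5.82-fold from DC (log2 −2.54 ± 0.40 (SE), adjusted p = 3.11e-05). AM and Ly6Clo were not told apart for Cmpk2 (−0.87 ± 0.63 (SE), adjusted p = 0.348). Ifi44 broke the common order. It was at 12.1, 31.9 and 41.2 CPM in DC, 1.43, 4.29 and 24.2 CPM in Ly6Chi, 0, 4.22 and 7.08 CPM in AM, and 5.55, 0, 4.21, 1.46 and 6.10 CPM in Ly6Clo. Ifi44 was 4.84-fold higher in DC than in Ly6Chi (2.27 ± 0.58 (SE), adjusted p = 0.00396) and was called in no pair without DC.

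Ifitm3 and Bst2, which encode membrane proteins, were at 56.3 CPM or more in every normoxic library. Ifitm3, which blocks the entry of enveloped viruses from endosomes, was at 56.3 to 195 CPM in AM, 195 to 426 CPM in Ly6Clo, 232 to 555 CPM in DC and 377 to 594 CPM in Ly6Chi. Ifitm3 in Ly6Chi exceeded AM 3.99-fold and Ly6Clo 1.63-fold, and DC was called against neither Ly6Chi nor Ly6Clo. Bst2 was at 112 to 140.2 CPM in AM, 109 to 155 CPM in Ly6Clo, 145 to 275 CPM in DC and 189.9 to 278 CPM in Ly6Chi, the smallest range of the 36, 1.72-fold (AM against Ly6Chi, log2 −0.78 ± 0.12 (SE), adjusted p = 6.24e-06). AM and Ly6Clo differed by −0.05 ± 0.13 for Bst2 (adjusted p = 0.801). Ifitm3 was the gene of the 36 with over 1 count per base, and whether that limit bears on its differences was not tested.

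The PYHIN genes, whose products bind DNA or other PYHIN proteins, were divided. Ifi205 was at 209, 345 and 469 CPM in DC, 49.6, 73.4 and 91.5 CPM in Ly6Chi and 0, 2.0 and 9.06 CPM in AM (lowest, median, highest), and the Ly6Clo libraries held 3.08, 8.87, 13.5, 12.4 and 2.62 CPM. Every DC library exceeded every other library, by 4.85-fold over Ly6Chi (log2 2.28 ± 0.25 (SE), adjusted p = 1.07e-07) and 45.2-fold over Ly6Clo (5.5 ± 0.34 (SE), adjusted p = 2.06e-11). Its neighbour Ifi204 ran the other way, at 317 to 453 CPM in Ly6Chi and 72.9 to 155 CPM in DC (2.94-fold lower in DC, −1.56 ± 0.18 (SE), adjusted p = 2.07e-07). Ifi203 did not separate DC (142 to 294 CPM) from Ly6Chi (177 to 274 CPM, −0.14 ± 0.14 (SE), adjusted p = 0.489), and Ifi209 was 1.60-fold lower in DC than in Ly6Chi. In AM Ifi203, Ifi204 and Ifi209 were at most 20.3, 22 and 7.87 CPM.

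**Figure D3:**
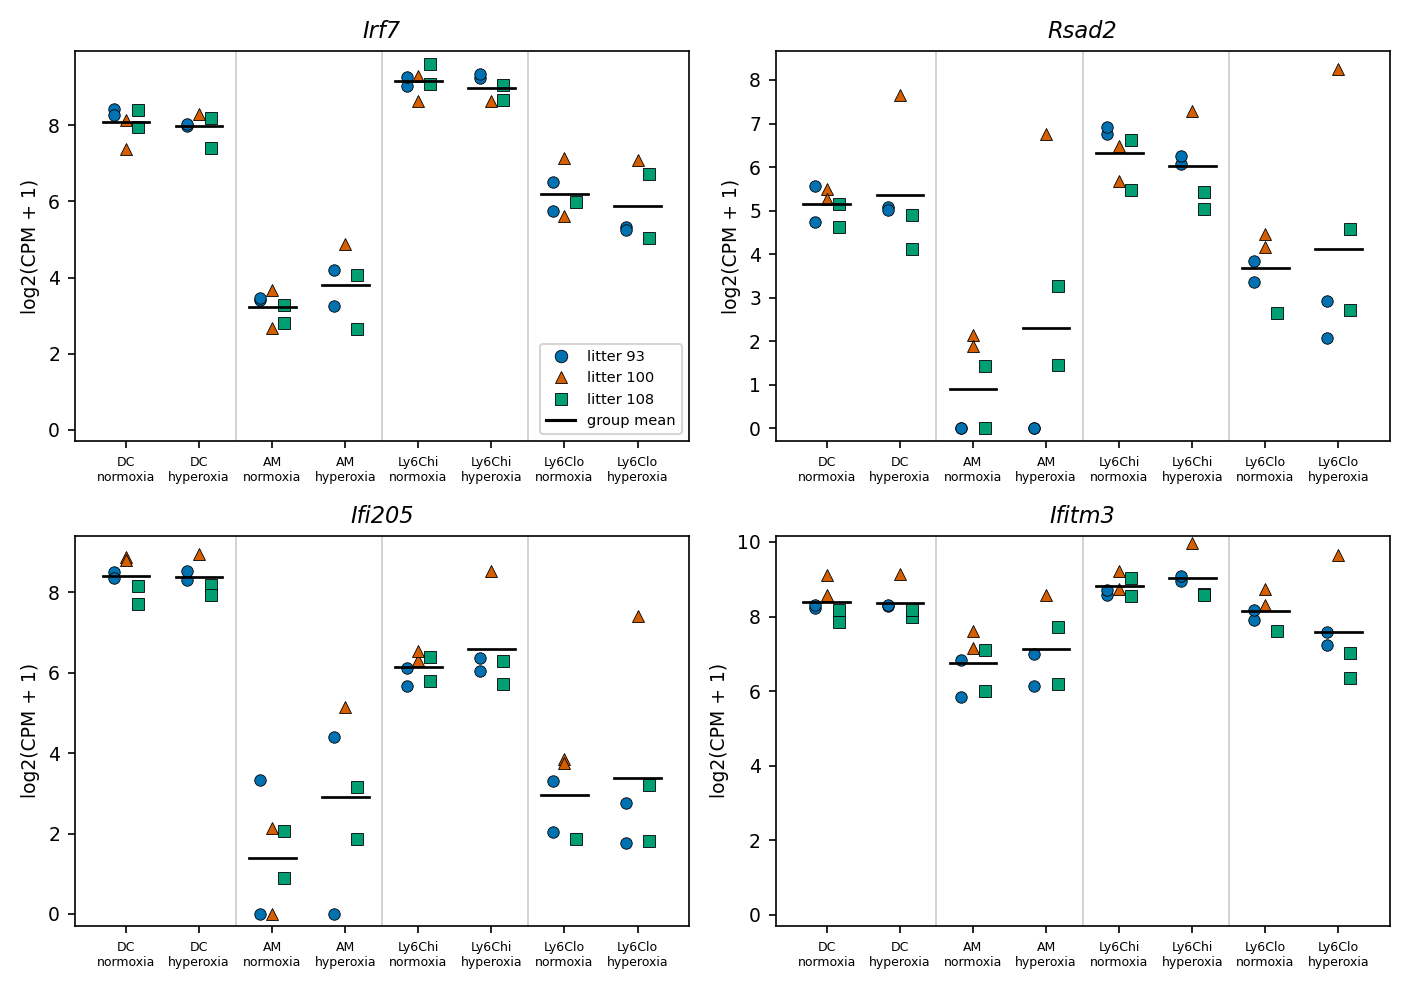
Irf7, Rsad2, Ifi205 and Ifitm3 in each of the 43 libraries as log2(CPM + 1) on the y axis, by population and oxygen condition on the x axis, with points by litter and bars at group means. Irf7 is highest in Ly6Chi and lowest in AM, Ifi205 is highest in DC, Ifitm3 differs less than the other 3 genes, and the hyperoxic library of litter 100 stands out for Rsad2 in every population.

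Slfn1 and Slfn5 belong to the Schlafen family, named for its effect on T cell growth. Slfn1 was at 437 to 666 CPM in Ly6Chi, 86.4 to 164 CPM in DC, 29.0 to 65.7 CPM in Ly6Clo and 0 to 17.6 CPM in AM, with no overlap between the 4, and was 4.69-fold lower in DC than in Ly6Chi. Slfn5 was 13.4-fold higher in Ly6Chi than in Ly6Clo (log2 3.74 ± 0.37 (SE), adjusted p = 1.70e-08). Ifi27l2a differed by 5.65-fold between AM (22 to 32.2 CPM) and Ly6Chi (116 to 198 CPM). The remaining genes, Rtp4, Xaf1, Parp14, Trim30a and Herc6, were 3.86-fold to 15.3-fold lower in AM than in Ly6Chi.

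Levels of different genes are compared only per length, as mean CPM per kilobase of exon. In Ly6Chi Ifitm3 led with 669, followed by Ifi27l2a (314), Slfn1 (284), Bst2 (249), Rtp4 (191) and Irf7 (154). In AM the order began with Ifitm3 (174), Bst2 (143), Ifi27l2a (55) and Trim30a (30.1), while Slfn1 was at 3.14 and Irf7 at 2.28. Trim30a is a negative regulator of NF-kB signalling.

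The genes of the 2 receptor chains, Ifnar1 and Ifnar2, were also lowest in AM. Ifnar1 was at 162 ± 27.9 CPM in Ly6Chi (SD, n = 6), 134 ± 16.5 in DC (n = 6), 74.4 ± 8.89 in Ly6Clo (n = 5) and 42.9 ± 10.2 in AM (n = 6), which was lower in AM than in Ly6Clo (log2 −0.81 ± 0.17 (SE), adjusted p = 0.000823). Ifnar2 was at 138 ± 38.8 CPM in AM and 279 ± 24.4 CPM in Ly6Chi (−0.99 ± 0.14 (SE), adjusted p = 1.05e-06). All 5 genes of the receptor and kinase list (Ifnar1, Ifnar2, Jak1, Tyk2, Ifnlr1) were higher in DC than in AM (27.5% of all genes) and 4, all but Ifnlr1, were lower in AM than in Ly6Chi (28.3%), with medians of 0.85 and −0.64.

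Of the other signalling genes, 17 of 18 in the table were tested in normoxia. DC were higher than AM in 12 and lower in 2, where 49.9% of all genes were called in either direction. AM were lower than Ly6Chi in 12 and higher in 1 (52.2%), and Ly6Chi higher than Ly6Clo in 7 and lower in 1 (30.7%). Tlr3, the endosomal receptor for double-stranded RNA, was at 304 ± 65.0 CPM in DC and on average at 14.7 CPM in Ly6Chi, 19.5 in AM and 22.5 in Ly6Clo. Tlr7, a receptor for single-stranded RNA, was lowest in DC (56.6 ± 17.1 CPM against 166 ± 35.1 in Ly6Chi, log2 −1.54 ± 0.16 (SE), adjusted p = 2.95e-08), and Mavs, the adaptor of the RNA sensors, was higher in AM (90.6 ± 18.1 CPM) than in Ly6Chi (51.6 ± 12.8 CPM, log2 0.80 ± 0.17 (SE), adjusted p = 0.000256).

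A second list of 44 interferon stimulated genes outside the 36 gave the same order, at mean log2 CPM of 6.93 in Ly6Chi, 6.17 in DC, 5.38 in Ly6Clo and 4.03 in AM. Of 43 tested, 40 were lower in AM than in Ly6Chi (28.3% of all genes), 37 were higher in Ly6Chi than in Ly6Clo (15.7%), and DC were lower than Ly6Chi in 31 (14.4%) and higher in 1 (14.2%). Plasmacytoid dendritic cells are known as strong interferon producers, and their 10 markers summed to 537 to 719 CPM in normoxic DC, 351 to 609 in Ly6Clo, 226 to 335 in Ly6Chi and 184 to 241 in AM. The part of such cells in the differences was not tested.

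Under hyperoxia the order of the populations stayed Ly6Chi, DC, Ly6Clo, AM for 33 of the 36 genes by mean log2 CPM, with Ifi44, Ifi205 and Ifih1 as the exceptions. The mean log2 CPM over the 36 genes was 7.27 ± 0.53 in Ly6Chi, 6.52 ± 0.62 in DC, 5.13 ± 1.04 in Ly6Clo and 3.8 ± 0.97 in AM (SD, n = 5 each). The SDs under hyperoxia were 0.53 to 1.04 against 0.17 to 0.38 in air. Tested among the hyperoxic libraries (11504 genes, an alternative chosen after seeing the data), 32 of the 36 genes were called between DC and AM (45.8% of all genes), 17 between DC and Ly6Chi (19.5%) and 19 between DC and Ly6Clo (24.4%). Between AM and Ly6Chi 36 were called (46.7%), between AM and Ly6Clo 14 (11.4%) and between Ly6Chi and Ly6Clo 33 (30.3%).

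No gene of the 36 passed the test of hyperoxia against normoxia within a population. In DC 0 of 36 were called by edgeR (0% of 11274 genes), in Ly6Chi 0 of 36 (0% of 10844 genes) and in Ly6Clo 0 of the 32 that passed the filter on low counts (0% of 10188 genes). In AM 0 of 22 were called, where 0.11% of 9986 genes were. Not tested for low counts were 14 genes in AM (Ifit1, Ifit2, Ifit3, Mx1, Isg15, Oas3, Oasl1, Rsad2, Ifi44, Ifi205, Ifi209, Cmpk2, Slfn1 and Slfn5) and 4 in Ly6Clo (Oas3, Oasl1, Ifi44 and Cmpk2). At an unadjusted p under 0.05 there were 2 in DC (8.85% of all genes tested), 8 in AM (9.91%), 2 in Ly6Chi (5.45%) and 3 in Ly6Clo (5.3%). DESeq2 and limma voom also called 0 in each population. On simulated data these edgeR fits found 46% to 65% of 2-fold changes, so 0 calls do not exclude changes of that size. In no population did the hyperoxic libraries lie wholly above or below the normoxic ones for any of the genes tested, where 0.142% of all genes lay wholly above and 0.31% wholly below in DC, 0.451% and 0.431% in AM, 0.0369% and 0.148% in Ly6Chi, and 0.294% and 0.393% in Ly6Clo.

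The filter on low counts changed this result. With every detected gene in the edgeR fit, 4 of the 36 were called in DC (Ifit1, Ifit2, Zbp1 and Rtp4, 1.73% of all genes), 3 in AM (Ifit2, Rsad2 and Zbp1, 1.65%), 2 in Ly6Chi (Oas2 and Ifi205, 1.15%) and 5 in Ly6Clo (Ifit1, Ifit2, Rsad2, Zbp1 and Ifi205, 0.859%). These names were chosen after their values were seen. In AM, where Rsad2 had too few counts for the filtered fit, it was at 0, 0, 107, 1.75 and 8.57 CPM in the 5 hyperoxic libraries, and replicate 3 alone exceeded 8.57 CPM. A test of whether the response to hyperoxia differed between populations called 0 of 36 with the filter (0% of 12529 genes, 5 at an unadjusted p under 0.05 against 4.92% of all genes, and 0 by DESeq2 and by limma voom) and 9 without it (2.2% of all genes).

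The genes with the smallest p in each population show where the spread lay. In DC Ifit1 was at 45.7, 34.2, 171, 29.8 and 29.9 CPM in the 5 hyperoxic libraries and at 14.1, 26.2 and 31.8 CPM (lowest, median, highest) in the 6 normoxic ones. A single hyperoxic library was far above the rest, and the groups overlapped (log2 1.15 ± 0.39 (SE), adjusted p = 0.490, edgeR). In Ly6Clo Ifit2 was at 12.9, 31.3, 155, 14.1 and 32.8 CPM under hyperoxia and 9.25, 22.7, 10.9, 20.5 and 0.872 CPM in air. The high value came again from the library numbered 3, and the difference was 2.09 ± 0.63 (SE), adjusted p = 0.860. In AM Trim30a was at 159, 162, 231, 140.3 and 137 CPM under hyperoxia and 94.6, 118 and 179.9 CPM in air, with overlap (0.48 ± 0.15 (SE), adjusted p = 0.254).

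Zbp1 and Ifi205 gave the same picture in Ly6Chi cells. Zbp1 was at 255, 244, 737, 186 and 182 CPM under hyperoxia and 184, 238 and 276 CPM in air (0.41 ± 0.22 (SE), adjusted p = 0.758, edgeR). Ifi205 was at 65.3, 81.2, 365, 51.2 and 76.6 CPM against 49.6, 73.4 and 91.5 CPM (0.68 ± 0.31 (SE), adjusted p = 0.758). Slfn5 and Oas2 had the smallest p there and negative differences, of −0.51 ± 0.23 and −0.51 ± 0.23 (SE, adjusted p = 0.758 for both).

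The other genes among the 5 with the smallest p in each population did not pass the test either. In DC the log2 differences were 0.84 ± 0.36 (SE) for Ifit2, −0.39 ± 0.19 for Mx1, 0.83 ± 0.39 for Zbp1 and 0.48 ± 0.24 for Rtp4, with adjusted p from 0.546 to 0.587 (edgeR). In AM they were 0.91 ± 0.33 for Herc6, 0.86 ± 0.33 for Xaf1, 0.75 ± 0.29 for Parp14 and 0.73 ± 0.28 for Ifi27l2a, with adjusted p from 0.324 to 0.366. Ifitm3 differed by 0.33 ± 0.17 in Ly6Chi. In Ly6Clo the differences were 0.90 ± 0.34 for Herc6, 1.68 ± 0.73 for Ifi205, 0.48 ± 0.23 for Bst2 and 1.66 ± 0.81 for Ifit1 (adjusted p = 0.860 each). Zbp1 encodes a nucleic acid sensor, Herc6 the ligase that attaches ISG15 in mice, and Parp14 a mono-ADP-ribosyltransferase.

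The library in question was hyperoxia replicate 3, the only hyperoxic library of litter 100 in each population. Its mean log2 CPM over the 36 genes was 7.61 in DC against 6.07 to 6.31 in the other 4, 5.32 in AM against 2.74 to 4.07 in the other 4, 7.98 in Ly6Chi against 6.51 to 7.41 in the other 4 and 6.95 in Ly6Clo against 4.38 to 4.96 in the other 4. It held the highest value of its population, both conditions included, for 29 of the 36 genes in DC, 27 in AM, 21 in Ly6Chi and 32 in Ly6Clo. The lowest value was there for 1, 0, 2 and 0 genes in the same order. The share of all genes at their highest there was not worked out. Replicate 3 was also singled out by the values of these same genes, so the counts are descriptions. Rsad2 was at 201 CPM in DC, 107 in AM, 156 in Ly6Chi and 305 in Ly6Clo in these libraries. Their totals, 1309747, 551960, 1026528 and 647844 counts, were the smallest of their hyperoxic groups. Normoxic replicate 3, also of litter 100, had the smallest total of its normoxic group in each population. Those totals were 1152853 (DC), 570769 (AM), 1525352 (Ly6Chi) and 1177993 (Ly6Clo) counts. The mean log2 CPM of the 36 genes there was 6.53, 3.29, 7.25 and 5.32. Each lay within the range of the other normoxic libraries of its population. Whether the 4 hyperoxic libraries of replicate 3 came from 1 animal is not given in the labels.

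Within litters, the difference between hyperoxia and normoxia in mean log2 CPM of the 36 genes was positive for litter 100 in every population and mixed elsewhere. For litters 93, 100 and 108 it was −0.17, 0.99 and −0.19 in DC, with 6, 33 and 10 of the 36 genes higher under hyperoxia. In AM it was 0.15, 1.92 and 0.52 (21, 36 and 30 genes higher). In Ly6Chi it was 0.06, 0.61 and −0.60 (24, 30 and 0 genes), and in Ly6Clo −0.30, 1.51 and 0.10 (8, 36 and 19 genes). Over all genes tested the median difference within litters lay between −0.13 (Ly6Clo, litter 100) and 0.008 (DC, litter 108). The share of all genes higher within each single litter was not worked out. Litter 100 rests on 1 hyperoxic library per population, and a litter's differences rest on 1 or 2 libraries a side, with no test.

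**Figure D4:**
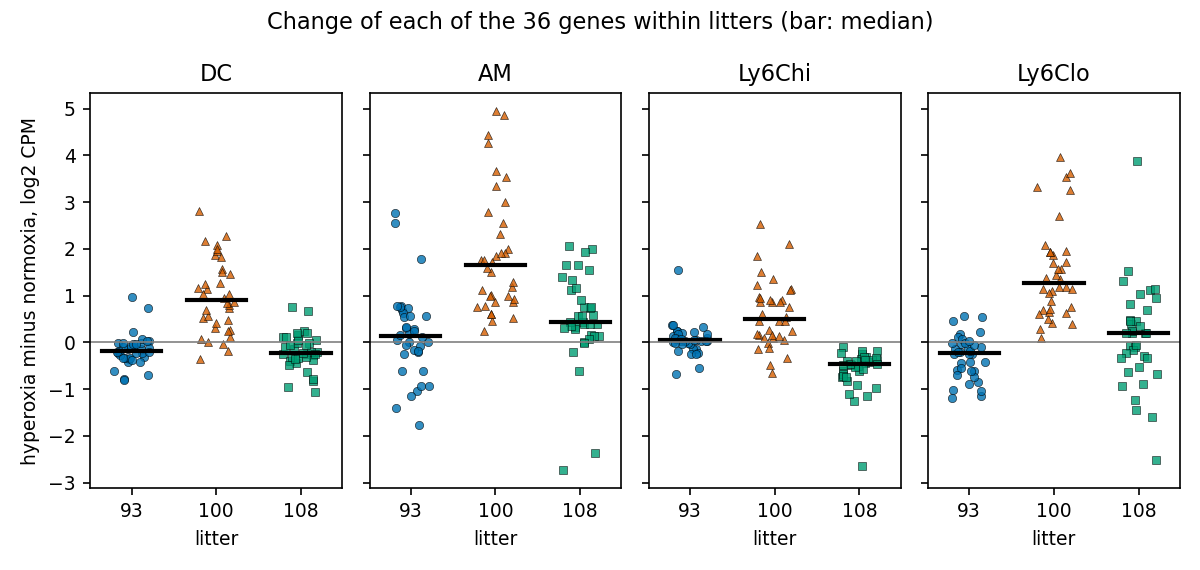
Difference in mean log2 CPM between hyperoxic and normoxic libraries of the same litter (y axis) for each of the 36 genes (points), by litter (x axis) in the 4 populations (panels), with bars at the median gene. Litter 100 lies above 0 for 30 to 36 of the genes, and litter 108 lies below 0 for all 36 in Ly6Chi.

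Outside AM, few genes differed in the same direction in all 3 litters, and the shares over 12529 genes are given beside each count. In DC Ifit1, Ifit2 and Ifitm3 were higher under hyperoxia in each litter (14.7% of all genes), and Mx1, Irf9 and Ifi44 lower in each (15.8%). In Ly6Clo Ifit1, Ifit2, Bst2, Cmpk2 and Herc6 were higher in each litter (8.95%) and 0 lower (13.5%), although Cmpk2 had too few counts for the filter there. No gene of the 36 was higher in each litter in Ly6Chi (12.3%), where Mx1 and Oas2 were lower in each (15.1%). In AM 16 of the 36 were higher in each litter (13%), among them Irf7, Oas2, Ifitm3, Bst2 and Trim30a, and 0 were lower in each (17.4%). The 16 include Ifit2, Ifit3, Oas3, Ifi205 and Slfn5, which had too few counts for the filter in AM. They held 23, 6, 6, 26 and 11 counts over the 6 normoxic AM libraries. The median fitted log2 fold change was 0.11 over the 36 genes in DC, −0.05 over the 36 in Ly6Chi and 0.34 over the 32 tested in Ly6Clo. That of all genes was 0.00, −0.01 and −0.01. Without litter 100 these medians of the genes were −0.16, −0.20 and −0.12, and 0 genes were called. In AM the median was 0.65 over the 22 genes that passed the filter, against −0.01 for all genes, and 0.38 over the 20 that passed it without litter 100. The fitted difference was positive for 24 of 36 genes in DC (50.1% of all genes), 22 of 22 in AM (48.8%), 14 of 36 in Ly6Chi (47.6%) and 23 of 32 in Ly6Clo (47.9%). The fitted differences leave out the genes with too few counts for the filter, and the genes are correlated.

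Markers of other cell types moved with these libraries in some populations. Of 11 marker lists, 3 summed to more in replicate 3 than in any other library of DC, 3 in Ly6Chi, 1 in Ly6Clo and 0 in AM. In DC hyperoxia replicate 3 the 10 plasmacytoid dendritic cell markers summed to 1021 CPM against 537 to 746 in the other 10 DC libraries, although only Ly6d and Lair1 of the 10 were at their highest there and none was at 0. The 9 classical monocyte markers summed there to 2321 CPM against 1556.5 to 1984.5, with 5 at their highest, and the 8 interstitial macrophage markers to 3510.1 CPM against 2292 to 3109.7, with 3 at their highest, and none of either list was at 0.

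In Ly6Chi hyperoxia replicate 3 the 7 T and NK cell markers summed to 625 CPM against 0 to 82.5 in the other Ly6Chi libraries, with Cd3d, Cd3g, Nkg7, Gzma and Klrd1 at their highest and none at 0. Plasmacytoid markers there summed to 457 CPM against 226 to 379, with Ly6d alone at its highest and none at 0. Dendritic cell markers summed to 1008 CPM against 371 to 945, with 5 of 12 at their highest and none at 0. In Ly6Clo replicate 3 the 11 neutrophil markers summed to 675 CPM against 211 to 662, although 7 of them, among them Ly6g, Mpo and Elane, were at 0. Plasmacytoid markers summed to 179 CPM against 184 to 253 in AM, with Ccr9, Pacsin1, Klk1 and Spib at 0, and to 494 CPM against 208 to 609 in Ly6Clo, with Pacsin1 and Klk1 at 0. Replicate 3 lay below all other libraries for epithelial markers in DC, plasmacytoid and B cell markers in AM, alveolar macrophage and non-classical monocyte markers in Ly6Chi and B cell markers in Ly6Clo. The part of these cells in the values of the 36 genes was not tested.

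Few counts were found for the ligands. Of 20 type I and type III interferon genes looked for, 10 were matched to a row by symbol, and 8 of these had 0 counts in all 43 libraries. The 10 without a match are not analysed here. Ifnb1, which encodes interferon beta, had 35 counts in 3 libraries: 30 in DC hyperoxia replicate 3 (23.3 CPM), 4 in Ly6Chi hyperoxia replicate 3 (4.19 CPM) and 1 in Ly6Clo normoxia replicate 3. Ifnk, the interferon of keratinocytes, had 25 counts spread over 17 libraries. Interferon transcripts below a few counts per library were not detectable at this depth. Both hyperoxic libraries with Ifnb1 counts belong to litter 100.

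None of the receptor, signalling or further interferon stimulated genes was called under hyperoxia either. In DC the 5 receptor and kinase genes, 17 signalling genes and 43 further interferon stimulated genes tested gave 0 calls by edgeR, and the counts at an unadjusted p under 0.05 were 0, 5 and 2 (8.85% of all genes). In AM these were 1 of 4, 2 of 15 and 7 of 32 (9.91%), in Ly6Chi 0 of 4, 2 of 17 and 4 of 43 (5.45%), and in Ly6Clo 0 of 4, 2 of 16 and 6 of 38 (5.3%).

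Genes induced mainly by interferon gamma, the type II interferon, were set beside the 36 as a list of 14 genes that includes guanylate-binding proteins and immunity-related GTPases. In normoxia its mean log2 CPM was 4.78 in DC, 3.97 in Ly6Chi, 3.15 in Ly6Clo and 2.18 in AM, so that DC rather than Ly6Chi came first. Under hyperoxia this list was highest in replicates 3 and 5 of every population, while the 36 genes were highest in replicate 3. In DC the list was at 7.52 in replicate 3 and 6.05 in replicate 5, against 7.61 and 6.07 for the 36 genes, of which the latter was the lowest hyperoxic DC value. In Ly6Chi it was at 6.52 and 4.76, against 7.98 and 6.51. In AM it was at 5.23 and 4.69, against 5.32 and 4.07, and in Ly6Clo at 6.59 and 5.16, against 6.95 and 4.96. In both of these populations replicate 5 was second to replicate 3 for the 36 genes. Gbp2, a guanylate-binding protein, was at 1021 and 397 CPM in DC, 658 and 453 CPM in AM, 997 and 260.1 CPM in Ly6Chi and 1076 and 653 CPM in Ly6Clo in replicates 3 and 5, and at most 130.2 CPM in any normoxic library.

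Ifng itself, the gene of interferon gamma made by T and NK cells, was at 25.2 CPM in Ly6Chi hyperoxia replicate 3 and 1.81 CPM in replicate 5. The NK cell gene Nkg7 was at 229 and 47.1 CPM there. In DC libraries Ifng was at most 2.04 CPM (hyperoxia replicate 4), and it was at 0 in every AM and Ly6Clo library. Nkg7 was nevertheless at 52.6 CPM in Ly6Clo normoxia replicate 4 and 37.4 CPM in AM normoxia replicate 1. These 2 genes were chosen after their values were seen, and their part in the values above was not tested.

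**Figure D5:**
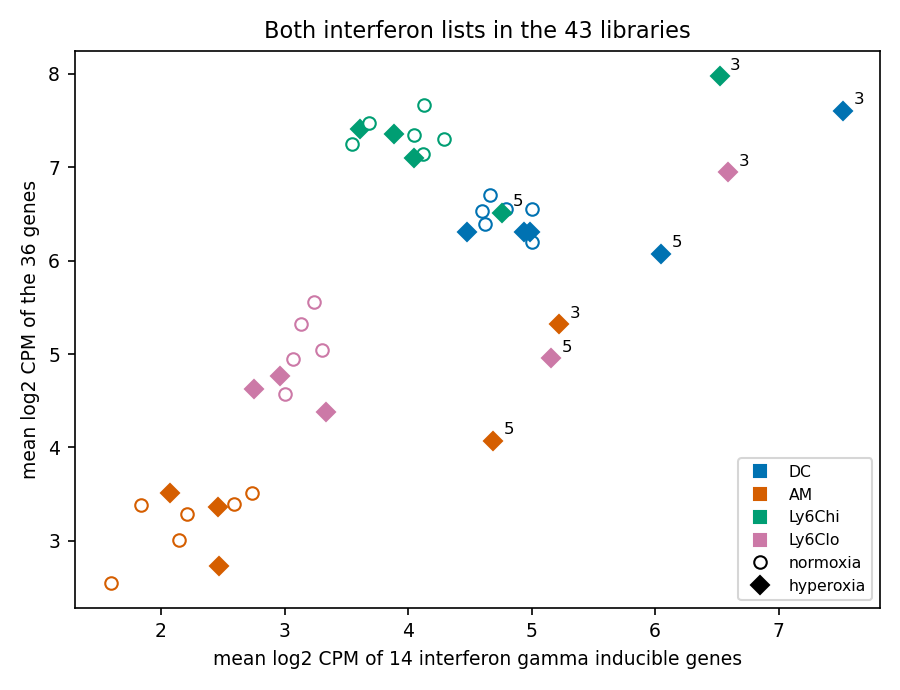
Mean log2 CPM of the 36 genes (y axis) against that of 14 interferon gamma inducible genes (x axis) in each library, with populations by colour, oxygen condition by symbol and hyperoxia replicates 3 and 5 labelled. Replicate 3 lies high on both axes in each population, and replicate 5 lies to the right of most libraries of its population without being as high on the y axis.

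The 36 genes were correlated with each other. Across the 43 libraries the correlation (Pearson's r) of each gene's log2 CPM with the mean of the other 35 had a median of 0.91, from 0.55 for Ifi44 to 0.96 for Ifit3. After the mean of each of the 8 groups was subtracted, the median was 0.67, from 0.15 for Dhx58 to 0.90 for Parp14. These libraries share populations and litters, so the values are descriptions. Outside the list, the genes whose log2 CPM was most like the mean of the 36 over the 43 libraries were Sp110 (r = 0.96), Ifi206 (0.96), Trim30d (0.96), Mndal (0.96), Ms4a4c (0.95) and Ifi207 (0.95), followed by Rnf213, Ifi213, Trim30c and Kdm7a (0.94 each). After subtraction of the group means Rnf213 came first (r = 0.89), then Sp110 (0.85), Ifi206 (0.82), Slfn2 (0.80), and Malt1, Tln1, Mov10, Ascc3, Rrbp1 and Trim30d (0.79 each).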

How the data were processed

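Gene counts per library, deposited by the authors as 1 table of 37991 genes, were used as deposited. The genome build was NCBIM37, and SAMtools, Picard, FastQC, TopHat and HTSeq 0.4.1 are named, per the submitters' processing notes. The role and order of the tools, the annotation and the handling of strand and multi-mapping reads are not given in the sources used here. Per the labels' protocols, libraries were SMART-Seq v4 and Nextera XT, without molecular identifiers. Gene symbols and exonic lengths came from GENCODE M21 (32919 genes matched, and genes without a symbol held 0.828% of counts).

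Levels are CPM (counts scaled to 1000000) after TMM scaling over 43 libraries. Tests were edgeR 4.0.16 quasi-likelihood fits (limma 3.58.1, R 4.3.3) with litter as an additive block, since the labels give litters, a filter of at least 10 counts (filterByExpr, total of 15), prior counts of 0.125 for fold changes and 1 for log2 CPM, and Benjamini-Hochberg adjustment over all genes tested. Fits covered 1 population for hyperoxia, all 43 libraries for its difference between populations and the 23 normoxic libraries for pairs of populations. DESeq2 1.42.0, limma voom, no filter, no block, a covariate for detected genes and left-out libraries or litters were alternatives. The fits were tested on simulated data with 100 genes changed 2-fold and 100 changed 4-fold. The hyperoxia fits of single populations found 46% to 65% of the 2-fold and 84% to 95% of the 4-fold changes. They also called 5 to 15 unchanged genes. The fit of the difference between populations found 25% and 61%. Replicate numbers follow accession order. Genes named were fixed by role, by test rank and by correlation. Members and lists were chosen with earlier results of these data known. Results on items withheld here are not reported.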

Additional observations from a re-analysis of the deposited data

Results flagged for a closer look

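On the log2 CPM scale, several values lay far from the rest of their group, by a gap between the extreme library and its neighbour above Dixon's critical value for groups of that size. Chance alone marks about 1 in 20 groups, and the genes are correlated, so the marks are not independent.

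The mean log2 CPM of the 36 genes was marked in hyperoxia replicate 3 of DC (7.61) and of Ly6Clo (6.95), both from litter 100. Among the single genes, the following were high in hyperoxia replicate 3. In DC these were Ifit1 at 171 CPM, Ifit2 at 302 CPM, Ifit3 at 192 CPM, Isg15 at 159 CPM, Rsad2 at 201 CPM, Ifitm3 at 565 CPM, Xaf1 at 351 CPM, Parp14 at 306 CPM and Herc6 at 189 CPM. In AM they were Ifi44 at 7.63 CPM, with the other hyperoxic AM libraries at 0, and Ifi203 at 103 CPM. In Ly6Chi they were Zbp1 at 737 CPM, Ifi205 at 365 CPM and Bst2 at 547 CPM, and in Ly6Clo Ddx58 at 101 CPM, Ifi205 at 168 CPM and Slfn1 at 139 CPM. Low values under hyperoxia were marked in Ly6Chi replicate 5, with Mx1 at 46.7 CPM, Oas3 at 15.9 CPM, Ddx58 at 69.8 CPM and Cmpk2 at 69.8 CPM.

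In air the high values were those of Oasl1 in AM replicate 1 (0.566 CPM, 1 count, with the other normoxic AM libraries at 0), Oas1a in Ly6Chi replicate 5 (282 CPM), Herc6 in Ly6Clo replicate 4 (66.5 CPM) and Ifi27l2a in replicate 3 of DC (164 CPM) and of Ly6Clo (114 CPM). The low ones were Oas1a in DC replicate 3 (69.6 CPM), Stat2 in AM replicate 1 (26.0 CPM), Ifit3 in Ly6Chi replicate 6 (76.2 CPM), Cmpk2 in Ly6Chi replicate 3 (79.5 CPM) and Mx1 in Ly6Clo replicate 5 (1.74 CPM).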

How the results depend on the processing

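Normoxic counts of called genes held within 1.5 times for every alternative fitted on normoxic libraries (leaving out each library: 36 to 36 for DC against AM, 25 to 29 for DC against Ly6Chi, 23 to 28 for DC against Ly6Clo, 35 to 35 for AM against Ly6Chi, 27 to 31 for AM against Ly6Clo and 35 to 35 for Ly6Chi against Ly6Clo). In the hyperoxic libraries, an alternative chosen after seeing the data, 17 were called for DC against Ly6Chi and 14 for AM against Ly6Clo. Under hyperoxia the count was 0 in every fit except those without a filter on low counts, which called 4 of the 36 genes in DC, 3 in AM, 2 in Ly6Chi, 5 in Ly6Clo and 9 for the difference between populations. Those fits called 369, 325, 235, 173 and 524 of all genes, against 0, 11, 0, 0 and 0 with the filter and 20, 110, 5, 1 and 17 by DESeq2. The cause was not tested. Leaving out the litter, which is the replicate block, changed no call under hyperoxia (0 genes called) and gave 36, 26 and 24 genes for DC against AM, Ly6Chi and Ly6Clo, 35 and 29 for AM against Ly6Chi and Ly6Clo, and 34 for Ly6Chi against Ly6Clo in air.

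The median log2 difference under hyperoxia was −0.16 in DC and −0.12 in Ly6Clo without litter 100, 0.73 in Ly6Clo without litter 93, 0.19 in Ly6Chi without litter 108, and −0.12 in Ly6Clo without libraries under 1000000 counts. Leaving out single libraries gave −0.17 to 0.18 in DC, 0.43 to 0.74 in AM, −0.21 to 0.07 in Ly6Chi and −0.12 to 0.48 in Ly6Clo, and the lowest value of each population came without hyperoxia replicate 3. Zbp1 in Ly6Chi changed sign without litter 100 (−0.0054) and without hyperoxia replicate 3 (−0.015 to 0.54 over left-out libraries). Ifi205 in Ly6Clo changed sign without hyperoxia replicate 3 (−0.020 to 2.43 over left-out libraries). That replicate was the only Ly6Clo library under 1000000 counts. In Ly6Clo, leaving out libraries under 1000000 counts is therefore the same fit and no separate check of depth. Without the 4 hyperoxic libraries of litter 100, added after seeing the data, 0 genes were called for the difference between populations. Low counts limited AM, where 14 of the 36 genes could not be tested.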
